A study of Catharus ustulatus with 19 samples.

Results

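Gene expression in the brain was compared between the inland and coastal ecotypes of Swainson's thrush (Catharus ustulatus), a migratory songbird, among the birds labelled migratory. These were 9 of the 19 birds of the series, 5 inland and 4 coastal, taken by their labels for migration status and ecotype. All birds had lived in captivity for more than 1 year under conditions held constant except for day length, and RNA was sequenced from a block of tissue with the hypothalamus and the optic chiasma. The migratory inland group held 5 males: replicates 2 and 3 were collected on 3 October 2011, replicates 4 and 5 on 4 October, and replicate 1 on 7 August. The migratory coastal group held 3 males, replicates 1 to 3, and 1 female, replicate 4; replicates 1 and 2 were collected on 3 October, and replicates 3 and 4 on 4 October. The 4 non-migratory inland birds (all male) and the 6 non-migratory coastal birds (4 males and 2 females) served to look for the same difference in other birds; 9 of these 10 were collected in August, on 7 or 8 August, and 1 coastal female on 4 October. One more migratory inland bird, set aside by the submitters for its outlying expression, was not analysed here. Each bird is 1 animal; the labels state no catching site, age or kinship, so these cannot be told apart from ecotype. Fewer cells of a type and less RNA per cell cannot be told apart in such tissue either.

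The inland and coastal forms of this species breed on either side of a contact zone in western North America and follow different routes to different winter ranges. The hypothalamus reads day length and hormone signals and controls feeding, energy stores, reproduction and daily timing, while the optic chiasma is a crossing of myelinated nerve fibres from the eyes. The table identifies genes by codes beginning ENSFALG, and none of the 11727 codes could be paired with a symbol (0 of 11727 occur among the 19631 RefSeq genes supplied). Genes are therefore given by code with no function or position, the lists of hypothalamic, glial, pituitary and clock genes could not be applied, and the labelled tissue was not checked against markers. Values are on a log scale taken as log2, so a difference of 1 is a 2-fold change on that reading.

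One migratory coastal bird, replicate 2, a male, lay farthest from the inland birds. It was singled out beforehand because it lay apart in these data, so its place is only described. The first principal component of the 9 birds held 31.8% of the variance and placed the 5 inland birds between 1.92 and 21.9 and the 4 coastal birds between -30.6 and -5.42. The ecotypes did not overlap on it, with coastal replicate 2 at the coastal end and inland replicate 1, the August bird, nearest to the coastal birds. The second component (16.5%) separated the female, at -31.6, from the 8 males, at -2.88 to 15.5, among which coastal replicate 2 was highest. Coastal replicate 2 lay more than 1 log2 outside the range of the other 8 birds in 51 genes and the female in 32, against 6 to 13 genes for each of the other 7 birds.

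**Figure D1:**
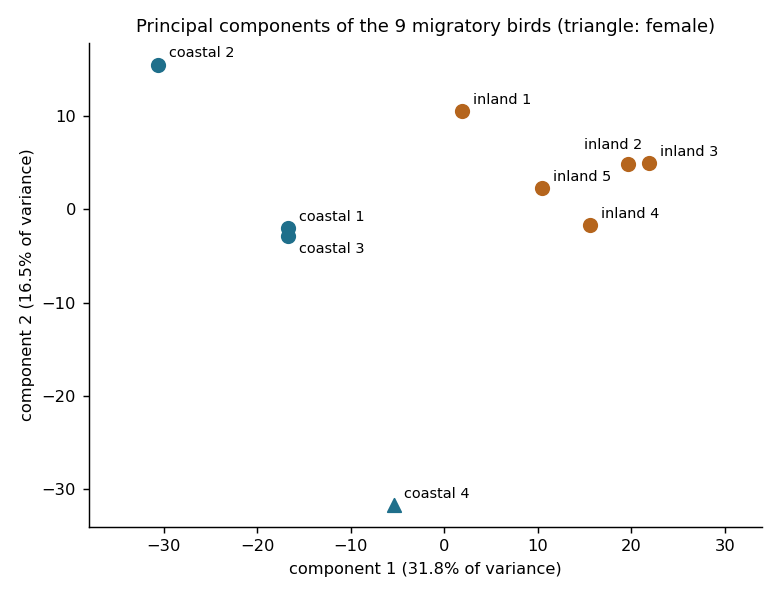
The first principal component (horizontal, 31.8% of variance) against the second (vertical, 16.5%) of the 9 migratory birds, inland in brown and coastal in blue, each point 1 bird and the triangle the female. Inland and coastal birds do not overlap along the first component, where coastal replicate 2 lies farthest out at -30.6, and the female lies apart at -31.6 on the second.

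Birds of the same ecotype resembled each other more than birds of different ecotypes did. The difference between a pair of birds had an SD across genes whose median was 0.37 log2 over the 10 inland pairs (0.33 to 0.40), 0.40 in the 6 coastal pairs (0.33 to 0.51) and 0.45 in the 20 mixed pairs (0.40 to 0.55). Without coastal replicate 2 the 15 mixed pairs had a median of 0.45 and the 3 coastal pairs one of 0.42 log2 (0.33 to 0.42). The widest coastal pair, at 0.51 log2, thus included coastal replicate 2, and the closest, at 0.33, did not. To the other coastal birds the median SD was 0.39 log2 for each of coastal replicates 1, 2 and 3, and 0.42 for the female. To the inland birds it was 0.53 log2 for coastal replicate 2 and 0.42 to 0.45 for the other coastal birds. The spread of a gene within a group was similar in both ecotypes: the median SD was 0.15 log2 in the 5 inland birds and 0.16 in the 4 coastal birds, or 0.14 without coastal replicate 2.

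The first question was which genes differed between the ecotypes in the migratory state. Of 11727 genes, 561 (4.78%) were called at an adjusted p under 0.05 by limma in a model of all 19 birds with a term for sex, 240 higher and 321 lower in inland birds. Most of these differences were small. Their median size was 0.51 log2, which is 1.43-fold, with quartiles of 0.36 and 0.76, while the median size over all genes tested was 0.14. More than 1 log2 separated the ecotypes in 71 called genes (25 higher and 46 lower in inland birds) and more than 2 log2 in 4, each lower in inland birds. Calls came from genes at every level of expression, from 4.20% of the lowest 25% of genes by mean value to 5.22% of the next 25%. In 64.4% of genes the 95% interval excluded a difference beyond ± 0.5 log2, and in 91.8% one beyond ± 1 log2.

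Described next are the 2 genes with the smallest p-values among those higher in inland birds, then the 2 among those lower. ENSFALG00000009884 stood at 28.64, 28.58, 28.56, 28.61 and 28.64 log2 in inland replicates 1 to 5 and at 27.93, 28.08, 27.94 and 27.76 in coastal replicates 1 to 4. The ecotypes did not overlap, and the female was the lowest bird. The difference was 0.63 ± 0.06 log2 (SE, limma adjusted p = 7.5e-06), 0.67 without coastal replicate 2. ENSFALG00000012167 was likewise higher in each inland bird, at 29.55, 29.49, 29.86, 29.84 and 29.73 log2, than in any coastal bird, at 28.69, 28.20, 28.73 and 28.64. Coastal replicate 2 was the lowest of the 9. Its difference was 1.16 ± 0.12 log2 (SE, 2.23-fold, adjusted p = 2.6e-05 by limma), 1.02 without that bird.

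ENSFALG00000004390 had the largest difference of the called genes. Inland birds stood at 21.89, 22.00, 22.86, 22.17 and 21.89 log2, where the lowest value in the table was 20.4, and coastal birds at 26.01, 25.94, 25.45 and 26.14. The gap between the highest inland and the lowest coastal bird was 2.59 log2, and the female was the highest bird. The estimate was -3.62 ± 0.30 log2 (SE, 12.3-fold lower in inland birds, adjusted p = 4.6e-06 by limma), -3.56 without coastal replicate 2. Inland replicates 1 and 5 held exactly the same value (21.8858), which inland replicate 3 held in another gene, ENSFALG00000007828. Exact matches also occurred at higher values, as the columns hold nearly the same sorted values. In ENSFALG00000006487 migratory inland replicate 2 and non-migratory coastal replicate 1 both held 26.1731. Whether the inland values lie at the lower limit of measurement was not tested, so the 12.3-fold size is uncertain. ENSFALG00000010236 stood at 26.32, 26.06, 25.87, 26.17 and 26.22 log2 in inland birds and at 27.34, 27.51, 27.29 and 26.91 in coastal birds. The groups again did not overlap, with the female lowest among the coastal birds. Its difference was -1.27 ± 0.11 log2 (SE, 2.40-fold, adjusted p = 4.6e-06 by limma), -1.22 without coastal replicate 2.

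**Figure D2:**
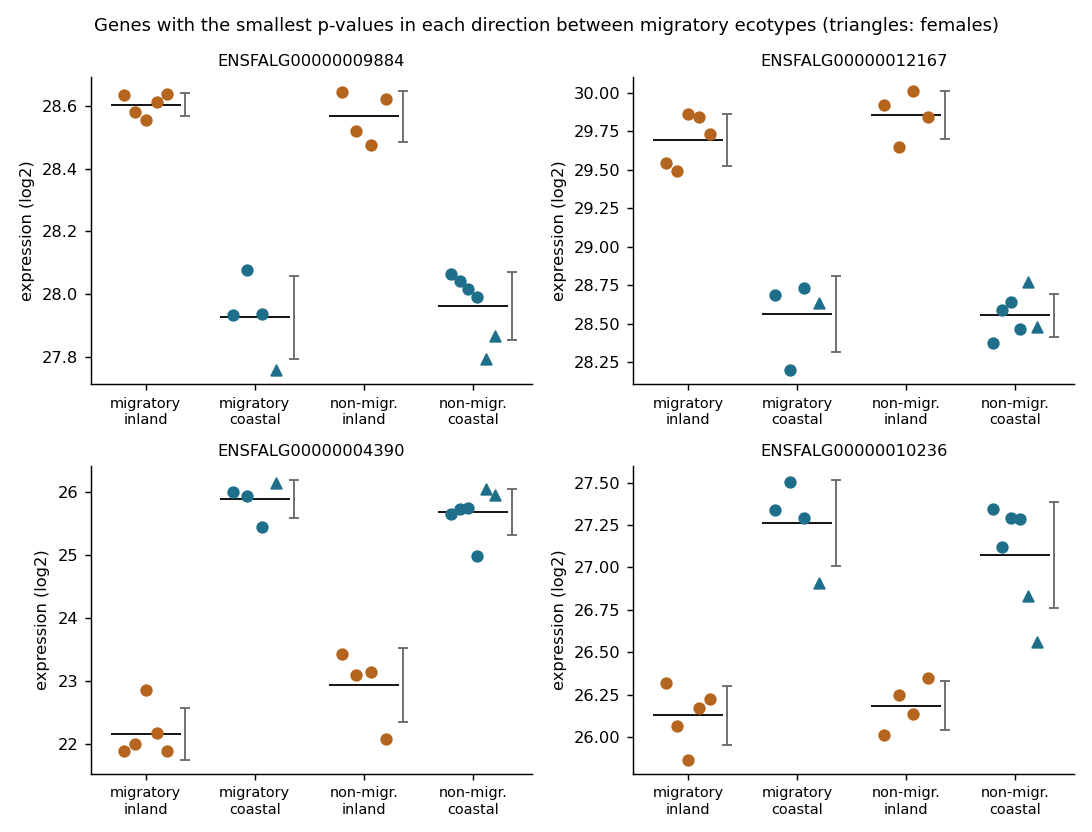
Expression (vertical, log2) of the genes with the 2 smallest p-values in each direction between migratory ecotypes, by group (horizontal), with 1 point per bird, triangles for females, a line at each group mean and a bar of ± 1 SD beside it. Migratory inland and migratory coastal birds do not overlap in any of the 4, and the non-migratory birds on the right lie on the same side as their ecotype.

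Counting birds without a model, 1121 genes (9.56%) had no overlap between the 5 inland and the 4 coastal birds, inland birds being higher in 536 and lower in 585, and 373 of the 1121 were among the called genes. Widest apart after ENSFALG00000004390 was ENSFALG00000011036, with inland birds at 26.33, 25.87, 26.02, 25.84 and 26.01 log2 and coastal birds at 24.78, 24.57, 24.44 and 24.72. The gap was 1.07 log2 and the difference 1.20 ± 0.28 log2 (SE, limma adjusted p = 0.022). That call was lost without coastal replicate 1, 2 or 3, and without replicate 2 the difference was 1.10 log2 (adjusted p = 0.10 by limma). In non-migratory coastal birds the same gene ran from 24.27 to 26.32 log2, across the values of both migratory groups.

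ENSFALG00000002337 had a gap of 0.93 log2, between inland birds at 26.46, 25.99, 26.44, 26.52 and 26.15 and coastal birds at 24.74, 25.06, 24.69 and 24.98. The ecotypes were thus well apart, and coastal replicate 2 was the coastal bird nearest to the inland ones. It differed by 1.46 ± 0.18 log2 (SE, adjusted p = 0.00028 by limma). ENSFALG00000004867 was lower in inland birds, at 24.82, 24.9985, 24.94, 24.65 and 24.94 log2, than in coastal birds, at 26.53, 26.16, 26.58 and 25.78, where the female was lowest. It differed by -1.55 ± 0.20 log2 (SE, adjusted p = 0.00042 by limma). Both were also called without coastal replicate 2.

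Since the 1 migratory female was coastal, the comparison was repeated in males. With 5 inland and 3 coastal males, in a fit of the 16 males of the series, 784 genes (6.69%) were called by limma, 354 higher and 430 lower in inland birds. No overlap was seen in 2182 genes (18.6%), a count that also grows because 3 birds are easier to separate than 4. Of the 561 genes called in all 9 birds, 507 (90.4%) were called in males as well. The direction in males was the same for all 561, which was nearly fixed, since these males were in the first fit too. Over the 561 genes the difference in males was at the median 1.07 times that in all birds. Of the 561, 72 (12.8%) were also called for sex in the same model, where 449 of all genes (3.83%) were. All females of the series were coastal, so both differences rest on the same coastal males and their overlap is only described. In males 65 of the 72 were called.

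ENSFALG00000004824 led the calls in males. It stood at 28.82, 29.10, 28.94, 28.78 and 29.05 log2 in inland birds and at 30.15, 30.10 and 30.11 in the coastal males. The female, at 28.96, lay inside the inland range. Its difference was -1.18 ± 0.10 log2 in males (SE, limma adjusted p = 4.3e-05) and -0.99 ± 0.17 in all 9 birds. The non-migratory females, at 29.70 and 29.30, lay just above and just under the coastal males of their status (29.42 to 29.65), and above the inland birds of their status (28.74 to 29.19).

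ENSFALG00000004845 was lower in inland birds, at 31.73, 31.64, 31.57, 31.71 and 31.65 log2, than in coastal males, at 32.52, 32.27 and 32.41, and the female at 32.21. The female was on the coastal side. The difference in males was -0.74 ± 0.07 log2 (SE, limma adjusted p = 4.3e-05). ENSFALG00000012486 was higher in inland birds, at 30.08, 30.22, 30.25, 30.14 and 30.15 log2. Coastal replicates 1 and 3 stood at 29.39 and 29.21, while coastal replicate 2, a male, stood at 28.70, next to the female at 28.56. The 3 females of the series were at 28.22, 28.46 and 28.56 and the gene was also called for sex (-0.83 log2 in females, limma adjusted p = 9.7e-05). Its ecotype difference in males was 1.07 ± 0.11 log2 (SE), and 0.81 ± 0.08 without coastal replicate 2 with the female kept.

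The count of 561 calls depended on which birds were in the fit, most of all on coastal replicate 2. Without it 143 genes (1.22%) were called by limma, 61 higher and 82 lower in inland birds. Of the 561 genes, 140 (24.96%) kept their call, and all 561 kept their direction. The 561 genes were chosen with the remaining birds in the fit as well, so their direction was nearly fixed. Their difference was at the median 0.91 times its former size and its SE 1.10 times. Leaving out coastal replicate 1 or 3 gave 221 or 331 calls, and leaving out inland replicate 2, 3 or 4 gave 307, 246 or 373. Without inland replicate 1 there were 555 calls, without inland replicate 5 454 and without the female 789. Among the coastal birds, replicate 2 was the one farthest from the inland birds in 294 of the 561 genes (52.4%) and in 37.2% of all genes. The genes were chosen with this bird in the group, so that share is a description.

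**Figure D3:**
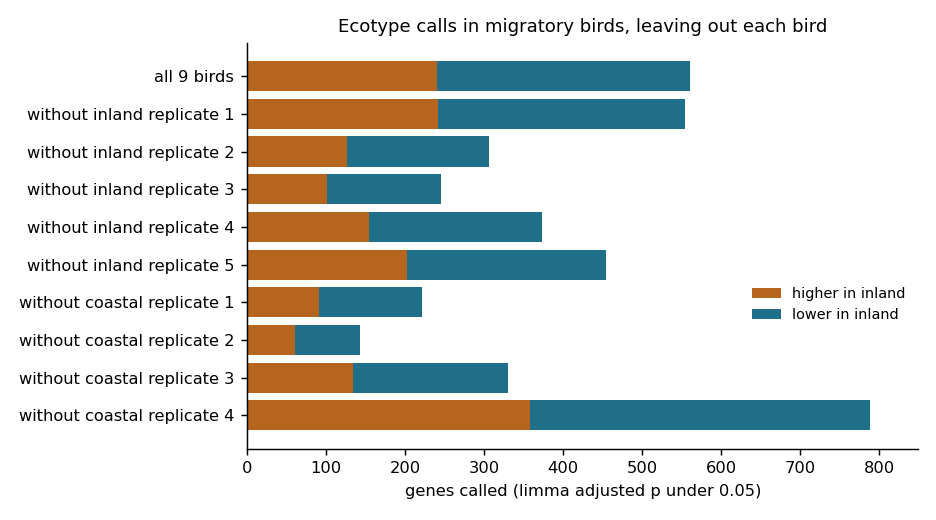
Number of genes called between migratory ecotypes (horizontal, limma adjusted p under 0.05) with all 9 birds and leaving out each bird in turn (vertical), in brown those higher and in blue those lower in inland birds. The count runs from 143 without coastal replicate 2 to 789 without the female, coastal replicate 4.

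Among the 8 birds left, coastal replicates 1, 3 and 4 did not overlap the inland birds in 1485 genes (12.7%). The 2 smallest p-values in each direction were those of ENSFALG00000009884 and ENSFALG00000012486, higher in inland birds, and of ENSFALG00000004390 and ENSFALG00000005089, lower. The last stood at 28.49, 28.40, 28.19, 28.40 and 28.32 log2 in inland birds and at 29.10, 29.09, 29.13 and 29.14 in the 4 coastal birds. Here coastal replicate 2 lay with the other coastal birds, whose spread was small (SD 0.03 log2, n = 4). The difference was -0.75 ± 0.07 log2 without that bird (SE, limma adjusted p = 4.5e-05) and -0.74 ± 0.06 with it. The count of 143 moved further when another bird was left out, to 32 or 30 without coastal replicate 1 or 3 and to 87, 69 or 88 without inland replicate 2, 3 or 4.

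In males without coastal replicate 2, where 5 inland birds faced 2 coastal ones, 161 genes were called. The 784 calls in males became 381 or 506 without coastal replicate 1 or 3 and 445 or 428 without inland replicate 2 or 3. A core of 124 genes (22.1% of the 561), 49 higher and 75 lower in inland birds, was called with all 9 birds, in males, without coastal replicate 2 and among the October birds described next. The median size of their difference was 0.68 log2, against 0.51 for the 561. Genes that pass every fit tend to have larger differences, so the larger median follows in part from the choice.

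Among migratory birds only inland replicate 1 was collected in August, so the comparison was also made among the 8 October birds, 4 inland and 4 coastal. With a sex term the female adds nothing to this fit, which thus compares 4 inland with 3 coastal males. It called 714 genes (6.09%) by limma, 373 higher and 341 lower in inland birds, and 378 of the 561 genes (67.4%) were among them. All 561 had the same direction, which the birds shared by the 2 fits nearly fixed. With the day of collection added the count was 667, and with the female counted as a coastal bird and no sex term it was 178. No overlap in the 8 birds was seen in 1550 genes (13.2%). The 714 fell to 240, 190 or 389 without coastal replicate 1, 2 or 3, and to 245, 130, 433 or 443 without inland replicate 2, 3, 4 or 5. Here the count was lowest without inland replicate 3, not coastal replicate 2.

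Each October day held 2 inland and 2 coastal birds, and in males the difference can be taken within a day by plain means. On 4 October the coastal side is then 1 male, replicate 3. For ENSFALG00000004390 the difference was -3.55 log2 on 3 October and -3.42 on 4 October, and for ENSFALG00000009884 it was 0.56 and 0.69. For ENSFALG00000012167 it was 1.23 and 1.05, and for ENSFALG00000010236 it was -1.46 and -1.09. The ecotypes do not overlap in these 4 genes, which fixes the sign on either day, so only the sizes are given.

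ENSFALG00000013503 and ENSFALG00000003300 had the smallest p-values among genes higher in inland October birds. The first stood at 29.23 log2 in the August bird, at 29.69, 29.87, 29.50 and 29.66 in the other inland birds and at 28.54, 28.74, 28.68 and 29.15 in coastal birds. The August bird and the female, the lowest inland and the highest coastal bird, were 0.08 log2 apart. The October difference was 1.03 ± 0.10 log2 (SE, limma adjusted p = 0.004). In the fit of all birds it was 0.83 ± 0.18, and this call was lost without coastal replicate 1 or 2 (0.82 log2, adjusted p = 0.066 by limma without replicate 2). ENSFALG00000003300 stood at 27.68, 27.34, 27.64, 27.64 and 27.51 log2 in inland birds and at 26.32, 26.38, 26.43 and 25.47 in coastal birds, the female lowest, with an October difference of 1.15 ± 0.11 log2 (SE).

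ENSFALG00000011070, lower in inland birds, stood at 26.84 log2 in the August bird, at 25.98, 26.42, 26.24 and 26.30 in the others, at 27.76, 28.11 and 27.90 in coastal males and at 26.71 in the female. The August bird and the female overlapped, and the other birds of the ecotypes did not. Its October difference was -1.69 ± 0.14 log2 (SE, limma adjusted p = 0.004) and that over all 9 birds -1.42 ± 0.25.

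The hour of collection varied within both ecotypes. Inland replicates 1 to 5 were taken at 7.65, 3.13, 3.97, 6.03 and 2.87 hours after lights on and coastal replicates 1 to 4 at 2.7, 7.07, 2.52 and 8.57 hours. Coastal replicate 2 and the female, the birds with the most genes outside the range of the others, were thus the late coastal birds. With the hour added to the model 617 genes were called by limma in place of 561. None of the 561 genes was called for the hour itself, a test that called 11 of all genes (0.0938%).

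The same ecotype difference was then looked up in the non-migratory birds, which are other animals. Migration status and month cannot be told apart here, since 9 of the 10 non-migratory birds were collected in August and 8 of the 9 migratory birds in October. In the non-migratory birds 127 genes (1.08%) were called by limma. To share neither birds nor a sex term, males were used: 4 inland against 4 coastal non-migratory males gave 108 called genes (0.921%), 59 higher and 49 lower in inland birds, with a median size of 0.70 log2. In migratory males 103 of these 108 genes (95.4%) had the same direction, where 57.04% of all genes did, and their median difference in that direction was 0.60 log2. The spread of a gene was still estimated over both statuses together.

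Each migratory bird fell on the side of its ecotype in these 108 genes. Relative to the mean of the non-migratory males and signed by their ecotype difference, the median over the genes was 0.28, 0.24, 0.23, 0.32 and 0.27 log2 in inland replicates 1 to 5 and -0.29, -0.32, -0.31 and -0.25 in coastal replicates 1 to 4. Coastal replicate 2 had a median close to those of coastal replicates 1 and 3 here, and it was the coastal bird farthest from the inland side in 25 genes (23.1%). Nor did the August bird stand apart from the other inland birds. All migratory males entered the estimate of spread by which the 108 genes were chosen. That favours genes in which males of a group lie close together, so the closeness of these males is a description. Coastal replicate 2 was on the coastal side in 86 genes, and coastal replicates 1 and 3 in 94 and 90. The female was on the coastal side in 77 of 108 genes, against 86 to 94 for the coastal males and 93 to 101 for the inland birds. Yet the coastal bird farthest from the inland side was most often the female too, in 38 genes (35.2%). Her quartiles were -0.57 and 0.07 log2. The female had no part in the choice of the genes.

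**Figure D4:**
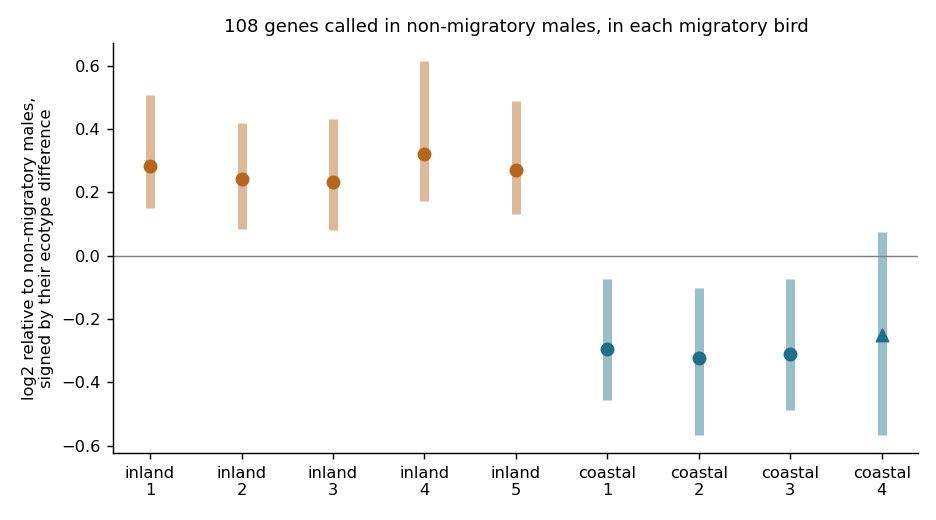
Median (point) and quartiles (bar) over the 108 genes called between ecotypes in non-migratory males, in each migratory bird (horizontal), as log2 relative to the non-migratory males and signed so that the inland side is positive (vertical); the triangle is the female. The 5 inland medians lie between 0.23 and 0.32 and the 4 coastal ones between -0.32 and -0.25. Coastal replicate 2 lies level with the other coastal males. All migratory males entered the spread by which the genes were chosen, so the place of that bird is a description.

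Starting instead from the 784 genes called in migratory males, a smaller share had the same direction. The median size of their difference in migratory males was 0.51 log2, against 0.70 in non-migratory males for the 108 genes. Of the 354 genes called higher in migratory inland males, 262 (74.0%) were also higher in non-migratory inland males, with a median difference of 0.12 log2 there and 0.47 in the migratory males that chose them. Of the 430 called lower, 340 (79.1%) were also lower, at a median of -0.14 log2 against -0.53. In males 57.04% of all genes had the same direction in both statuses. The median over all genes was 0.00 in either status. For the 143 genes called without coastal replicate 2, from the fit with a sex term, 138 (96.5%) had the same direction in non-migratory birds, where 61.1% of all genes did. The median in that direction was 0.45 log2 against 0.67 in migratory birds. Both statuses share the sex term of that fit, which can bring their directions together. These shares are therefore not comparable with those in males.

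No gene was called for a difference between the statuses, and so nearly between the months, in the ecotype difference (limma, 0 of 11727, with 0.31 as the smallest adjusted p), while 1049 genes lay under 0.05 before adjustment. In males the counts were 0 and 1404, and without coastal replicate 2 they were 0 and 862. If no gene differed, a share of about 0.05 of the 11727 genes would lie under 0.05 before adjustment. The counts were not tested against that share. In 87.6% of genes the 95% interval of this contrast stayed inside ± 1 log2. The migratory ecotype differences of the genes named so far are thus not shown to differ from the non-migratory ones, nor to equal them. For ENSFALG00000013503 the difference was 0.83 ± 0.18 log2 in migratory and -0.04 ± 0.18 in non-migratory birds (SE, limma adjusted p = 0.44 between them). For ENSFALG00000003300 it was 1.24 ± 0.15 and 1.21 ± 0.14 log2 (SE).

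The genes closest to such a difference were ENSFALG00000006487 and ENSFALG00000004697. The first stood at 26.03, 26.17, 26.21, 26.51 and 26.34 log2 in migratory inland birds and at 25.35, 25.41, 25.08 and 26.02 in migratory coastal birds. The groups missed each other by 0.02 log2, with the female next to the inland birds, and females were higher in this gene (0.72 log2, limma adjusted p = 0.0041). The migratory difference was 0.97 ± 0.14 log2 (SE, limma adjusted p = 0.0013) and the non-migratory one -0.05 ± 0.14, and they differed by 1.02 ± 0.19 (SE, limma adjusted p = 0.31).

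ENSFALG00000004697 stood at 29.12, 29.08, 29.24, 29.40 and 29.12 log2 in migratory inland and at 29.49, 29.43, 29.50 and 29.43 in migratory coastal birds. Non-migratory birds lay the other way round, from 29.59 to 29.66 in inland birds and from 29.16 to 29.55 in coastal birds. Neither the migratory difference of -0.25 ± 0.08 log2 (SE, adjusted p = 0.077 by limma) nor the non-migratory one of 0.29 ± 0.08 (adjusted p = 0.086 by limma) passed, and their difference of -0.54 ± 0.11 did not either (adjusted p = 0.31 by limma).

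The genes with the widest gaps without coastal replicate 2 are described last. Leaving a bird out favours genes in which it lies near the other ecotype, so its place in them is a description. In genes lower in inland birds these gaps were those of ENSFALG00000007828 and ENSFALG00000007824. The first stood at 26.02, 22.23, 21.89, 26.86 and 24.96 log2 in inland birds, at 29.64, 31.60 and 30.57 in coastal replicates 1, 3 and 4, and at 27.27 in coastal replicate 2. Coastal replicate 2 lay nearer to the highest inland bird than to the next coastal one. The difference was -5.16 ± 1.72 log2 with it (SE, limma adjusted p = 0.093) and -6.05 ± 1.90 without it (limma adjusted p = 0.14).

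ENSFALG00000007824 showed the same arrangement, at 23.08, 21.75, 21.25, 23.35 and 21.75 log2 in inland birds, 26.01, 26.79 and 27.30 in coastal replicates 1, 3 and 4, and 22.35 in coastal replicate 2, inside the inland range. Its difference of -3.11 ± 1.18 log2 (SE) did not pass either (limma adjusted p = 0.13). Migratory inland replicates 2 and 5 and non-migratory coastal replicate 2 held exactly the same value (21.7463). In ENSFALG00000007828 migratory inland replicate 3 held 21.8858, the value of inland replicates 1 and 5 in ENSFALG00000004390. Such exact matches also occurred at higher values, as given above for ENSFALG00000006487. Whether such low values lie at the lower limit of measurement was not tested. Both genes also spread widely among non-migratory birds, the first from 23.49 to 31.45 in coastal and from 26.16 to 31.84 in inland birds, the second from 21.75 to 27.08 and from 22.62 to 27.26. In both, non-migratory inland replicate 2 was the highest inland bird and non-migratory coastal replicate 2 the lowest coastal bird.

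**Figure D5:**
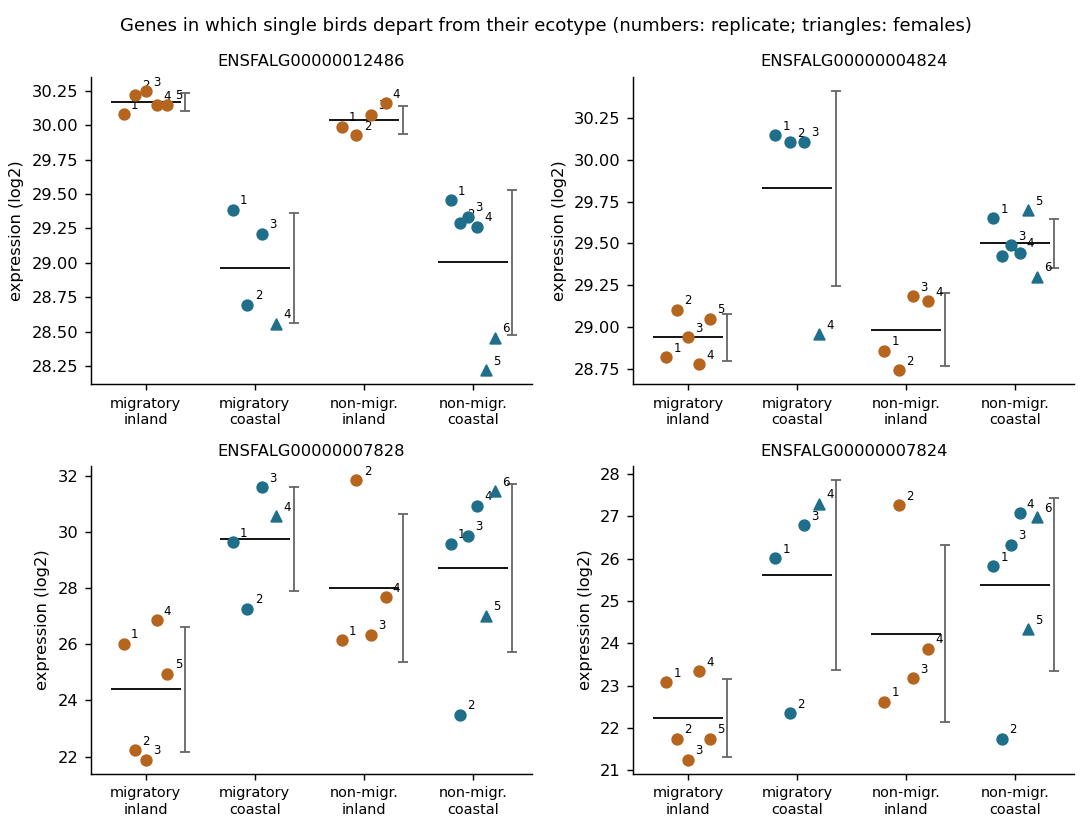
Expression (vertical, log2) by group (horizontal) of 4 genes in which a bird departs from its ecotype, with 1 point per bird numbered by replicate, triangles for females, a line at each group mean and a bar of ± 1 SD beside it. Coastal replicate 2 lies near the females in ENSFALG00000012486 and near or within the inland range in ENSFALG00000007828 and ENSFALG00000007824, and the migratory female lies in the inland range in ENSFALG00000004824. ENSFALG00000007828 and ENSFALG00000007824 were chosen by their gap without coastal replicate 2.

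In the opposite direction ENSFALG00000014298 stood at 25.43, 25.88, 25.61, 25.17 and 25.11 log2 in inland birds, at 22.68, 24.06 and 22.75 in coastal replicates 1, 3 and 4, and at 25.06 in coastal replicate 2, which was 0.04 log2 under the lowest inland bird. Its difference was 1.65 ± 0.65 log2 with that bird (SE, adjusted p = 0.14 by limma) and 2.15 ± 0.68 without it (adjusted p = 0.14 by limma). The non-migratory birds spread widely, from 22.95 to 25.74 in inland and from 23.31 to 26.39 in coastal birds.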

How the data were processed

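RNA was extracted with a Trizol kit and DNase and made into libraries with a TruSeq kit, per the labels' protocols; the kit does not mark strand, so overlapping genes on opposite strands cannot be told apart. Per the submitters' processing notes, HTSeq, TopHat2 and Trim Galore 0.3.1 were used; the sources used here give neither genome build nor annotation. A table of 11727 genes by 19 birds was deposited by the authors; per its name, it holds exon counts after trimmed-mean normalization (TMM). The deposited values run from 20.4 to 36.0 and were taken as log2, since the base is not stated. Columns share a median of 28.05 and nearly the same sorted values, which a single TMM factor per bird would not give by itself. Depth is therefore unknown and no counting interval can be given. A gene is higher or lower only relative to the other genes of its bird. The authors' column of averages was not used.

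Differences were estimated with limma 3.58.1 in R 4.3.3 on the deposited values: 4 group means and a sex term over all 19 birds, with a trend of variance on mean, robust moderation, two-sided p-values, Benjamini-Hochberg adjustment over all genes, and calls at an adjusted p under 0.05. Differences are inland minus coastal, adjusted for sex unless in males, so they can depart from plain means. The procedure was tested on simulated data. Replicate numbers follow the order of the samples and pair no birds. Genes are named by a rule: the 2 smallest p-values in each direction of each comparison (the 2 smallest for the difference between statuses) and the 2 widest gaps in each direction. The comparison, the lists and the rule were chosen with earlier results of these data known. Alternatives changed the birds, covariates, moderation, weights, filter and scaling. Figures were drawn with matplotlib 3.10.9.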

Additional observations from a re-analysis of the deposited data

Results flagged for a closer look

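In 44 checks of a migratory group of 4 or 5 birds, 2 marked a value far from the rest of its group. The checks were on a named gene, a principal component or the 108-gene median. About 1 in 20 is marked by chance (2.2 here) where values are not chosen, but the genes were named from these same birds, so the 2 counts cannot be compared. Both marked values were the female, migratory coastal replicate 4. Both genes were named from fits that leave the female out or take her up in the sex term. Such fits favour genes with close coastal males wherever the female lies, so her place is a description. In ENSFALG00000004824 it stood at 28.96 log2, with the next coastal bird at 30.10. In ENSFALG00000003300 it stood at 25.47 log2, with the next coastal bird at 26.32; the gene was also lower in females over the series (-0.69 log2, limma adjusted p = 0.0072).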

How the results depend on the processing

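Leaving out each bird gave 143 to 789 calls for all 9 birds, 161 to 729 for males, 30 to 183 without migratory coastal replicate 2 and 130 to 727 for the October birds. Weighting birds by their fit raised the calls to 1077 (all 9), 1184 (males) and 649 (without migratory coastal replicate 2); the cause was not tested. Males without migratory coastal replicate 2 gave 161, a fit with fewer birds. Without that bird, leaving out the lowest 25% of genes gave 94 calls, with fewer genes tested. The October count with no sex term was 178, and genes with no overlap in males numbered 2182, with 1 bird fewer. The other alternatives stayed within 1.5 times: 385 calls with no sex term, 495 with the month added, 771 for the 9 migratory birds alone (where the sex term takes up the female), 778 for migratory males alone, 507 without trend and robust settings, and 567 with columns rescaled. No fit reversed any of the 19 named genes in 409 values, of which 5 lost and 7 gained a call. These genes were named from the same birds, so their direction was nearly fixed. Alternatives for the males, the 8 birds and the October birds were mostly added after seeing the data. No pseudocount was tried, as the values are logarithms. The labels give no replicate numbers to pair birds by; the day of collection served as the block among the October birds, with 667 calls against 714.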

Other observations

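The 2 non-migratory females, which had no part in choosing the 108 genes called between ecotypes in non-migratory males, also lay on the coastal side, with medians of -0.32 log2 (replicate 5) and -0.29 log2 (replicate 6) over these genes. They were on the coastal side in 83 and 80 of the 108 genes, near the 77 of the migratory female.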
